A study of Mus musculus with 2 samples.

Results

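Endothelial cells, which line blood and lymphatic vessels, were searched for in single-cell RNA sequencing of the mouse anorectal junction, where the stratified epithelium of the anal canal meets the glandular rectum. A cell was taken when it carried at least 2 UMIs (unique molecular identifiers, each counting 1 captured RNA molecule) summed over Ccl21a, Lyve1, Mmrn1, Pecam1 and Cdh5. The rule found 97 cells among 6773 that had over 200 and under 5000 detected genes and under 25% mitochondrial UMIs. They were 18 of 1548 cells in the normal library (1.16%, exact binomial 95% interval 0.691 to 1.83) and 79 of 5225 in the wounded library (1.51%, 1.20 to 1.88). All intervals given here cover counting error only. The libraries held 17617944 UMIs in 2564 barcodes (normal) and 88260050 UMIs in 17216 barcodes (wounded), and the chosen cells had medians of 7792 and 2745 UMIs against 9496 and 10161.5 in the other cells.

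Each condition was 1 library of pooled mice, so no spread between animals can be given and no test was run. Both libraries came from C57/BL6J mice carrying K17CreERT2 and R26RGFP, a keratin 17 promoter-driven, tamoxifen-inducible Cre with a loxP-stopped ZsGreen1 reporter at Rosa26, and both groups had been given tamoxifen. The Cre is driven by an epithelial keratin promoter, and ZsGreen1, listed among the features of the normal library, had 1 UMI in 1 of the 18 normal cells. The normal group was unwounded and was dissected after 2 days of tamoxifen. The wounded group was taken 1 week after the rectal lining next to the junction had been stripped with hot EDTA and an electric brush. These mice were 2 to 4 months old at wounding. They had received tamoxifen before the wound, were under isoflurane for it and were given the drug METACAM. Their longer time since tamoxifen and these drugs cannot be told apart from the wound. For the tamoxifen-traced mice of both conditions an age of 6 to 8 weeks is also stated, so the ages of the mice behind the libraries are not certain.

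The sort bears on every count of these cells. Live cells were kept for EpCam and against CD45, CD11b, PDGFRa and CD31, and CD31 is the protein that Pecam1 encodes. The cells described here are those that came through this gate and are not a sample of the vessels of the tissue. A change in their share between the libraries cannot be told apart from a change in the sort.

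Blood and lymphatic endothelial cells share junction proteins such as VE-cadherin (Cdh5), claudin 5 (Cldn5) and CD31, and share receptors such as VEGFR2 (Kdr) and TIE1. Lymphatic endothelial cells are set apart by the transcription factor PROX1, which holds their identity, by VEGFR3 (Flt4), the receptor for VEGF-C, by the hyaluronan receptor LYVE1 and by the chemokine CCL21, which draws dendritic cells and T cells bearing CCR7 into the lymphatic capillaries. Blood capillary cells carry VEGFR1 (Flt1), the fenestral diaphragm protein PLVAP, the fatty acid binding protein FABP4 and GPIHBP1, which brings lipoprotein lipase to the capillary wall.

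Positions are given on GRCm38 as gene bodies. Ccl21a lies at chr4:42772860-42773993 on the minus strand, Lyve1 at chr7:110850607-110863239 on the minus strand, Mmrn1 (multimerin 1, a secreted matrix protein) at chr6:60924976-60989378 on the plus strand, Pecam1 at chr11:106654217-106750628 on the minus strand and Cdh5 at chr8:104101625-104144511 on the plus strand. Ccl21a has near-identical copies. The annotation holds a second Ccl21a model on an unplaced scaffold and Ccl21c models on other scaffolds. Ccl21b has a model on a scaffold and another on chromosome 4 (chr4:42255767-42256432). All of these were listed at 0 UMIs in both libraries, while the Ccl21a model on chromosome 4 held 845 UMIs in the normal and 420 in the wounded barcodes. Which copy a molecule came from is therefore uncertain.

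The endothelial promoters were read for 1 motif. The windows below are shown because they hold ACAGGAA, a sequence built on the GGAA core bound by ETS factors, the family to which the endothelial factors ERG and FLI1 belong. They are the 120 bases that end just before a transcription start (RefSeq, GRCm38.p6), written 5′ to 3′ on the strand of the gene, with the motif, or its reverse complement TTCCTGT, in capitals. The start of Ccl21a follows chr4:42773992-42774111 (minus strand), those of Egfl7, a secreted endothelial factor, follow chr2:26580963-26581082 and chr2:26583745-26583864 (plus strand), another Egfl7 start lacking the motif, and that of Ushbp1, a gene high in these cells, follows chr8:71395802-71395921 (minus strand).
Ccl21a: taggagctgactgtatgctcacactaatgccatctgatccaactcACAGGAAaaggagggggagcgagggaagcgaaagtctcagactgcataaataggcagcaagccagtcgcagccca
Egfl7, upstream start: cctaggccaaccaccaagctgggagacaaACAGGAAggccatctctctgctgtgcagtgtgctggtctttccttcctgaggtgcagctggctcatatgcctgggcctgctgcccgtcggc
Egfl7, downstream start: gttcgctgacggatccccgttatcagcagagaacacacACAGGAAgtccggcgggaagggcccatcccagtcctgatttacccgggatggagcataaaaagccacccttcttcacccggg
Ushbp1: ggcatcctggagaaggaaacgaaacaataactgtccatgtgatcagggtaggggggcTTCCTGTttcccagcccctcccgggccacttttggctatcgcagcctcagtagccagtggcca

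Counted on both strands over the whole promoter of 300 bases, 250 before and 50 after the start, the motif was present in 3 of the 10 pan-endothelial genes with a promoter in the RefSeq table, 3 of 15 lymphatic genes, 4 of 12 blood endothelial genes and 0 of 5 stratified epithelial genes. Over all genes it was present in 2629 of 27025 (9.73%). Cldn5, Kdr, Flt4 and Prox1 did not hold these letters in their windows. A match is a run of letters and was not tested as a site.

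The cells fell into kinds by which rule gene they carried and by the name the authors had deposited. Of the 97 cells, 67 (69.1%) had a UMI of Ccl21a, Lyve1 or Mmrn1 and 30 had only Pecam1 or Cdh5. The share with a lymphatic rule UMI was 8 of 18 in the normal library (44.4%, 21.5 to 69.2) and 59 of 79 in the wounded library (74.7%, 63.6 to 83.8). That share counts UMIs and not cell types, since most of these cells also carried much keratinocyte RNA, as described below. The majority of the wounded library rested on cells deposited under the name Hybrid, and it did not hold under 10% mitochondrial UMIs, where 5 of 16 wounded cells had a lymphatic rule UMI (31.2%, 11.0 to 58.7), nor outside the deposited table, where 4 of 23 did (17.4%, 4.95 to 38.8). Of those 79 cells, 53 were Hybrid, 2 Suprabasal and 1 Regeneration, and 23 were not in the deposited table. Those 53 were 16.8% (12.8 to 21.4) of the 316 Hybrid cells. None of the 573 Basal, 397 Rectum and 838 Wound_Stress cells of the wounded library met the rule.

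In the normal library 16 of the 18 cells were not in the deposited table, 1 was named Basal and 1 Rectum, and none of the 432 Anal Canal and 186 Suprabasal cells met the rule. Of the 16 cells outside the table, 10 carried Pecam1 or Cdh5 without a lymphatic rule gene and 6 carried a lymphatic one. Of the 23 such wounded cells, 19 and 4 did. Outside the deposited tables most of the cells found were therefore of the first kind, called Pecam1/Cdh5 cells below. No cell barcode of the 97 was shared by the libraries, and 1 barcode was shared among all barcodes deposited.

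The rule has a threshold at 2 UMIs. In the wounded library the 83 cells with 1 rule UMI held the 20 pan-endothelial genes outside the rule at 153 CPM (UMIs per 1000000 UMIs, from the summed UMIs of the group), the 13 cells with 2 UMIs held them at 327 CPM and the 66 cells with 3 or more at 6480 CPM. In the normal library the same levels were 52.7 CPM in 79 cells with 1 UMI, 925 CPM in 3 cells with 2, and 8629 CPM in 15 cells with 3 or more. Cells without a rule UMI were at 42.1 CPM (normal, 1451 cells) and 48.5 CPM (wounded, 5063 cells). All 13 wounded cells just inside the threshold were in the deposited table.

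The label was set beside genes the rule did not use. In the normal library 17 of the 17 pan-endothelial genes with enough UMIs to compare (20 in the list) were at least 4-fold higher in the 18 chosen cells than in the 1530 others, with a median log2 ratio of 9.58 against 0.73 over all genes compared. At this fold 9.38% of the 12694 genes compared were higher and 2.1% lower. In the wounded library 19 of 19 were at least 4-fold higher, with a median of 9.30 against 0.58, where 8.81% of 15174 genes were higher and 1.54% lower. These cells were chosen by genes that move with such lists, and genes such as Ptprb and Sox18 reached the 20 UMIs needed for comparison only through the chosen cells, where they had to be higher. The counts therefore describe the cells and check nothing. A further 11 of 12 lymphatic and 11 of 11 blood endothelial genes were at least 4-fold higher in the normal cells, and 13 of 16 and 12 of 13 in the wounded cells.

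Among single genes, Cldn5 had 150 UMIs in 13 of the 18 normal cells and only 5 among the remaining 1530, so that the log2 ratio was 11.78 (10.53 to 13.43). In the wounded library it had 96 UMIs in 22 of 79 cells and 8 among the remaining 5146 (log2 ratio 11.05, 10.01 to 12.30). Cldn5 encodes the tight junction protein that seals endothelial borders, and it was nearly absent from the rest of both libraries. Ptprb, the phosphatase of the endothelial junction (VE-PTP), had 48 UMIs against 1 in the normal library, and Kdr had 129 against 7 in the wounded. Flt4 had 54 UMIs in 27 chosen wounded cells against 1 UMI in all others, the highest ratio of that library (log2 13.22, 10.68 to 18.55). Reln, which encodes the secreted glycoprotein reelin made by lymphatic endothelium, had 31 UMIs against 4 in the normal and 44 against 4 in the wounded library. Emcn (endomucin), Gpihbp1, Ushbp1, Cd300lg and Adgrl4 were also among the 15 highest ratios of both libraries. In the normal library those 15 also held Podxl, S1pr1, Sema7a, Sox18, Cd93, Lrg1 and Adgrf5, and in the wounded library Unc45b, Erg, Myct1, Gm12002, Clec1a and Klhl4.

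The counts of the other lists stand beside the same 9.38% (normal) and 8.81% (wounded) of all genes at least 4-fold higher, and they too hold genes that met the minimum mainly through the chosen cells, such as Kdr and Flt4, so they are descriptions. Of the basement membrane genes, 10 of 10 compared were at least 4-fold higher in the normal cells (median log2 ratio 4.06) and 10 of 11 in the wounded (3.30). For VEGF and angiopoietin ligands and receptors the counts were 6 of 10 and 9 of 14, and for scavenger receptors and lipid uptake 5 of 7 and 5 of 8, with Cd36, a fatty acid receptor, at 16 UMIs in 4 normal and 15 UMIs in 6 wounded cells. Leukocyte adhesion genes were higher in 4 of 8 and 4 of 8, Notch genes in 2 of 7 and 4 of 9, and chemokine axis genes in 2 of 3 and 3 of 4. Of the genes of lymphatic valves and collecting vessels, 1 of 3 and 4 of 6 were higher, among them Gata2, a transcription factor of the valves, with 22 UMIs in 15 wounded cells and 11 UMIs in the 5146 others. Cycling and heat shock genes had 0 members at least 4-fold higher in either library, and immediate-early genes 1 of 14 in each, shares near those over all genes from which nothing is read.

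Markers of other cells bear on the label. The 10 fibroblast genes had 0 UMIs in the 18 normal cells and 4 UMIs in the 79 wounded cells. The 5 glial genes had 0 UMIs in both. Of 12 leukocyte genes, only Cd74, the class II invariant chain, had UMIs, 26 in the normal and 10 in the wounded cells, and the other 11, Ptprc (CD45) among them, were at 0. The 7 platelet and red cell genes had 5681 UMIs in the normal cells, all in 1 Pecam1/Cdh5 cell, where they made up 31.0% of its 18349 UMIs, with Hba-a1 the most abundant at 2888, and 0 UMIs in the wounded cells. The 8 pericyte and smooth muscle genes summed to 29.6 CPM in the normal cells, with Notch3 highest at 2 UMIs, and to 199 CPM in the wounded cells, with Tagln highest at 21 UMIs, against 498 and 654 CPM in the other cells. The part of these transcripts in the results was not tested.

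**Figure D1:**
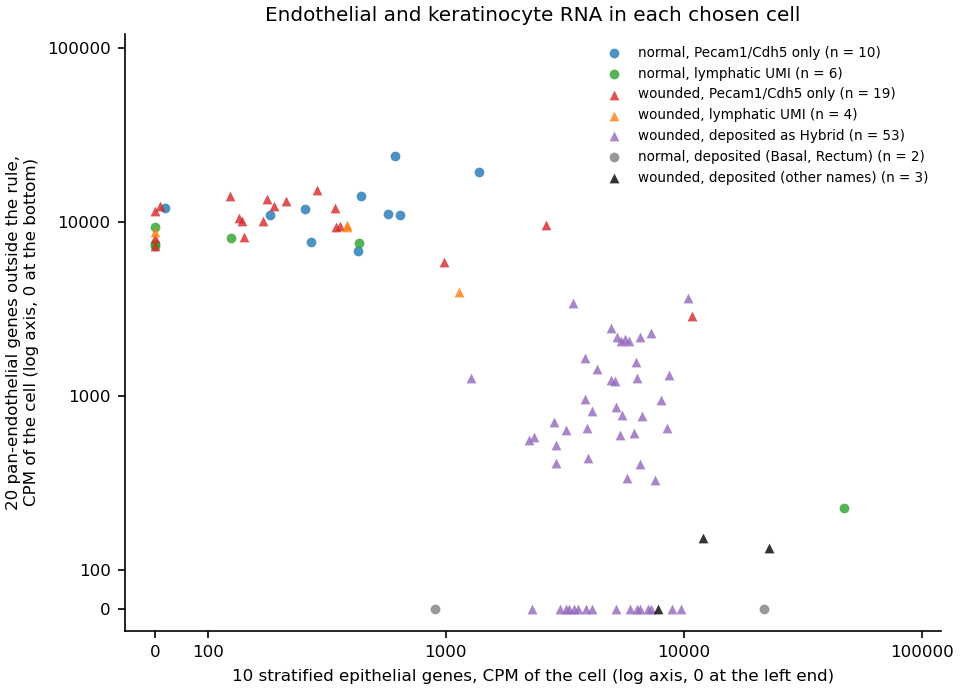
Each point is 1 chosen cell, with the summed level of the 10 stratified epithelial genes on the x axis and of the 20 pan-endothelial genes outside the rule on the y axis, both as CPM of the cell on log axes with 0 drawn at the axis end. The Pecam1/Cdh5 cells lie between 2878 and 23752 CPM on the endothelial axis, while the 53 Hybrid cells lie at a median of 5206 CPM on the epithelial axis and 638 CPM on the endothelial axis.

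The Pecam1/Cdh5 cells carried the genes of blood capillaries. In the 10 normal cells Plvap had 0, 0, 0, 19, 15, 12, 5, 27, 16 and 34 UMIs in cells of 723, 1642, 2349, 4669, 7805, 8735, 9112, 10943, 15145 and 18349 UMIs, so the 3 shallowest cells had none. In the 19 wounded cells it ran from 0 over a median of 9 to 45 UMIs and was found in 15. Summed, Plvap stood at 1611 CPM (normal) and 2037 CPM (wounded), and at 1.0 and 1.2 CPM in the other cells of each library. Flt1 stood at 1271 and 1138 CPM, Ly6c1, a surface protein of capillary endothelium in mice, at 2718 and 2236 CPM, and Fabp4 at 2718 and 3309 CPM. Fabp4 was found in 4 of the 10 normal and 15 of the 19 wounded cells, and the 4 normal cells held 24 to 95 UMIs each. Stratified epithelial genes were low here, at 315 CPM in the normal and 708 CPM in the wounded cells, against 16968 and 10750 CPM in all other cells. Of the 89 such UMIs in the 19 wounded cells, 64 were in 1 cell. That cell had 17 pan-endothelial UMIs among 5907 and was kept in all levels and ratios. A keratinocyte-rich normal cell of the lymphatic kind, described below, was left out, so the groups were not handled alike.

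The 3 lymphatic rule genes were at 0 in every Pecam1/Cdh5 cell, which is how these cells were defined. The 18 lymphatic genes the rule did not use summed to 1258 CPM over 8 genes in the normal and 1352 CPM over 9 genes in the wounded cells, most of it Timp3, an inhibitor of matrix proteases, at 78 of 100 and 93 of 170 UMIs. Among the other members, Reln was at 0 in both groups, Prox1 had 1 UMI in the 10 normal and 0 in the 19 wounded cells, and Fgl2, a secreted fibrinogen-like protein, had 0 and 9 UMIs. Flt4 was present, with 5 UMIs in 3 normal and 11 UMIs in 6 wounded cells.

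Lymphatic cells outside the deposited tables were few, and their Ccl21a counts varied widely. Of the 6 normal cells, 1 had a single UMI each of Ccl21a and Pecam1, none of Prox1, Flt4 or Reln, and 416 UMIs of stratified epithelial genes among 8801, and it was left out of the levels of this group after its values were seen. In the other 5 cells Ccl21a had 48, 36, 113, 299 and 342 UMIs among 688, 2788, 3068, 4648 and 8002. In the 4 wounded cells it had 1, 115, 17 and 36 UMIs among 1759, 2967, 7770 and 7774. The ranges overlap, since the wounded cell with 115 Ccl21a UMIs lies among the normal ones. Summed, Ccl21a was at 43660 CPM in the normal and 8337 CPM in the wounded cells, values that chose the cells and that 5 and 4 cells carry.

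Prox1, which encodes the regulator of lymphatic identity, was found in 9 of the 10 lymphatic cells outside the deposited tables, the exception being the normal cell left out, whose lack of Prox1, Flt4 and Reln was seen before it was left out. It had 1, 1, 1, 2 and 2 UMIs in the other normal and 4, 3, 12 and 15 UMIs in the wounded cells, and the groups did not overlap in UMIs. Against the depth of the cell they do overlap, since 1 UMI among 688 in the shallowest normal cell is a higher level than 3 among 2967 in a wounded one. The sums were 7 and 34 UMIs, or 365 and 1677 CPM, a log2 ratio of wounded over normal of 2.20 (1.01 to 3.62). With 1 library per condition and 5 and 4 cells, this is a difference between these cells. In the other cells of the libraries Prox1 was also higher in the wounded one, at 6 and 55 UMIs (log2 ratio 1.41, 0.19 to 2.91). Across the 252 genes compared here, 11.9% were at least 2-fold higher and 21.4% at least 2-fold lower in the wounded cells. Lyve1 was at 2553 and 2417 CPM and Mmrn1 at 3647 and 2713 CPM, and neither interval of the ratio left 0 (Lyve1 -0.68 to 0.52, Mmrn1 -0.96 to 0.10). Both genes chose the cells, so nothing is read from these ratios.

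Genes of the Pecam1/Cdh5 cells were low or at 0 in the lymphatic cells. The 18 blood endothelial genes had 20 UMIs over 4 genes in the 5 normal lymphatic cells, Car4 highest at 7 and Gpihbp1 at 6, and 8 UMIs over 3 genes in the 4 wounded ones, Emcn highest at 5. Picked from the lists for their values, Plvap, Flt1, Ly6c1, Fabp4, Sparc and Nrp1 had 0 UMIs in the 5 normal and the 4 wounded cells, where a count of 0 allows up to 156 and 148 CPM (3 UMIs of the group). Sparc, a matrix protein, was at 3448 and 4765 CPM in the Pecam1/Cdh5 cells, and its level in the lymphatic cells was at least 4.46 lower on the log2 scale in the normal library and at least 5.01 lower in the wounded. Igfbp7, secreted by blood endothelium, fell from 9274 CPM in the Pecam1/Cdh5 to 156 CPM in the lymphatic cells of the normal library and from 7422 to 98.7 CPM in the wounded. Flt1, Plvap and Ly6c1 met the 20 UMIs needed only through the Pecam1/Cdh5 cells, where they had to be higher. The blood endothelial counts that follow are therefore a description. Of the 7 blood endothelial genes with enough UMIs, 3 were at least 4-fold lower in the normal lymphatic cells (10.6% of the 739 genes compared) and 4 in the wounded (5.87% of 1193). With the keratinocyte-rich sixth normal cell included, 5 of 7 were lower and 5 of 6 lymphatic genes higher, where 11.5% of 829 genes were lower and 4.83% higher.

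In the other direction, the cells had been split by lymphatic genes, and Reln (normal) and Prox1 (wounded) met the 20 UMIs needed only through the lymphatic cells, so the counts that follow are a description. Of the lymphatic genes outside the rule, 5 of 6 were at least 4-fold higher in the normal lymphatic cells (3.38% of all genes compared) and 7 of 8 in the wounded (2.51%). Flt4 was at 834 and 1233 CPM against 62.9 and 87.5 CPM in the Pecam1/Cdh5 cells. Reln was found in the same 9 of 10 cells, at 1615 and 937 CPM, with 1, 4, 8, 2 and 16 UMIs in the normal and 4, 2, 5 and 8 in the wounded. Fgl2 was at 1928 and 4045 CPM, Maf, a transcription factor of lymphatic endothelium, at 886 and 1036 CPM, and Stab1, a scavenger receptor, at 1094 and 740 CPM. Igfbp5, an insulin-like growth factor binding protein outside the lists, had 3, 4, 20, 25 and 24 UMIs in the normal lymphatic cells and 0, 12, 38 and 7 in the wounded, against 0 and 2 UMIs in the Pecam1/Cdh5 cells. Each of these genes stood at 87.5 CPM or lower in the Pecam1/Cdh5 cells of both libraries. Igfbp5 was named after its values were seen. Cldn5 was shared by both kinds, at 2084 and 2269 CPM in the lymphatic cells.

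**Figure D2:**
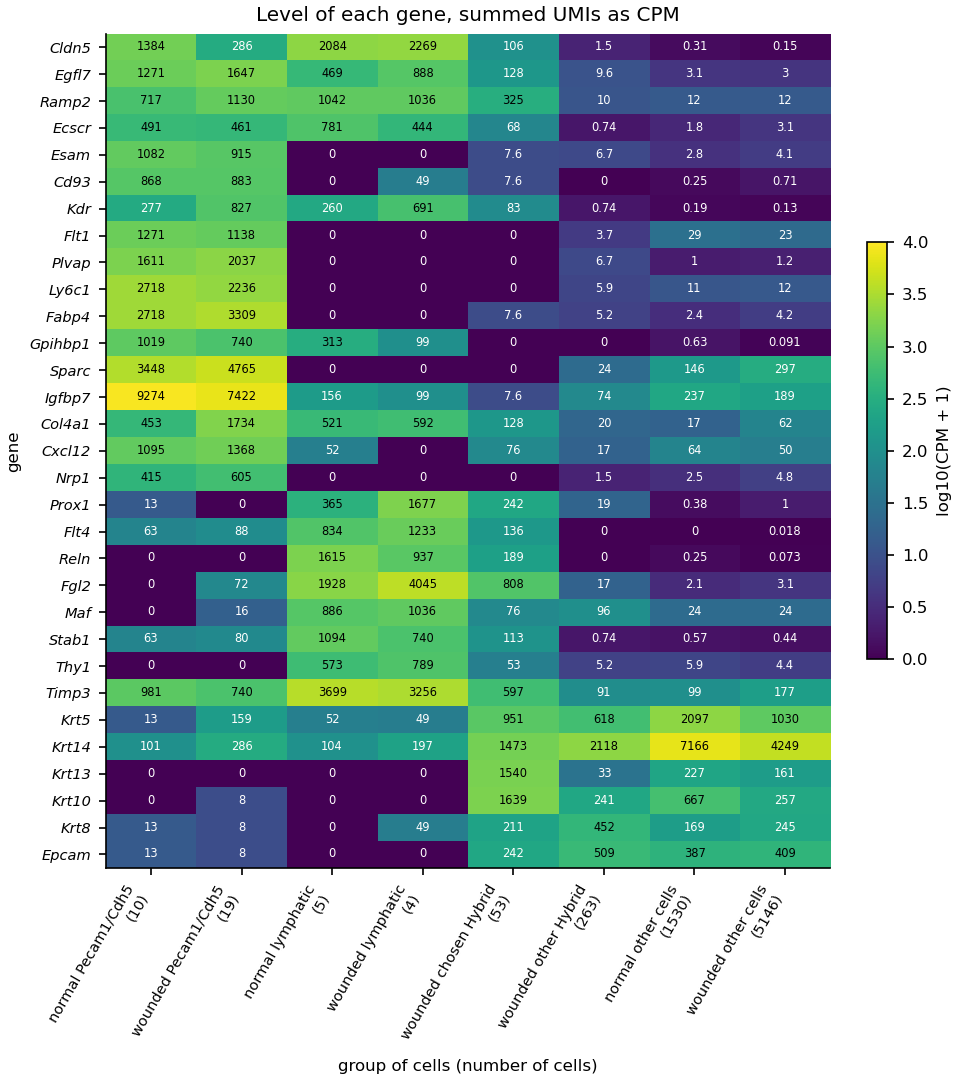
Rows are genes and columns groups of cells with their number, each box giving the level in CPM of summed UMIs and coloured by log10(CPM + 1). Plvap, Flt1, Ly6c1, Sparc and Nrp1 are at 0 in both lymphatic columns and in the chosen Hybrid column, and Krt13 and Krt10 stand at 1540 and 1639 CPM in the chosen Hybrid column and at 0 in both lymphatic columns.

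Among the receptors and ligands of vessel growth, Kdr was found in both kinds, at 277 and 827 CPM in Pecam1/Cdh5 and 260 and 691 CPM in lymphatic cells (normal and wounded). Nrp1, the VEGF-A co-receptor neuropilin 1, was at 415 and 605 CPM in Pecam1/Cdh5 cells and at 0 in lymphatic cells, whereas Nrp2, the co-receptor for VEGF-C, was at 75.5 and 215 CPM against 625 and 493 CPM. Tie1 was in both kinds, at 340 and 318 CPM and at 625 and 247 CPM. Of the ligands, Vegfa had 0 UMIs in all 4 of these groups and Vegfc 2 UMIs in each Pecam1/Cdh5 group. Cxcl12, a chemokine that holds CXCR4-bearing cells near vessels, was at 1095 and 1368 CPM in the Pecam1/Cdh5 cells and had 1 and 0 UMIs in the lymphatic cells. Ccr7, the receptor for CCL21, was at 0 in all of them.

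Leukocyte adhesion and Notch genes were sparse. Selp, the P-selectin of activated venules, had 0 UMIs in the 10 normal Pecam1/Cdh5 cells, where 0 allows up to 37.7 CPM, and 18 UMIs in 4 of the 19 wounded cells, 10 of them in 1 cell (143 CPM, 84.9 to 226). Ackr1, a chemokine-binding protein of venules, had 1 UMI in 1 normal and 8 UMIs in 4 wounded cells. Sele and Vcam1 each had at most 2 UMIs in either group. Among Notch genes, the ligand Dll4 had 6 and 7 UMIs and the target Hey1 7 and 5 UMIs, and the arterial connexin Gja5 was at 0 in all 5 groups.

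The 53 Hybrid cells differed from both kinds. They were shallow, with 582, 2289 and 6472 UMIs (lowest, median and highest) and a median of 950 detected genes, and their median mitochondrial share was 18.4%, against 4.86% in the 263 other Hybrid cells, 8.20% in the wounded Pecam1/Cdh5 cells and 7.80% in the wounded lymphatic cells. Ccl21a was found in 45 of them with 0 to 17 UMIs and a median of 3, Lyve1 in 39, Mmrn1 in 35, Pecam1 in 12 and Cdh5 in 7. In 42 cells at least 2 of the 3 lymphatic rule genes were found together, and in 24 all 3. These counts come from genes that chose the cells and are given as a description.

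**Figure D3:**
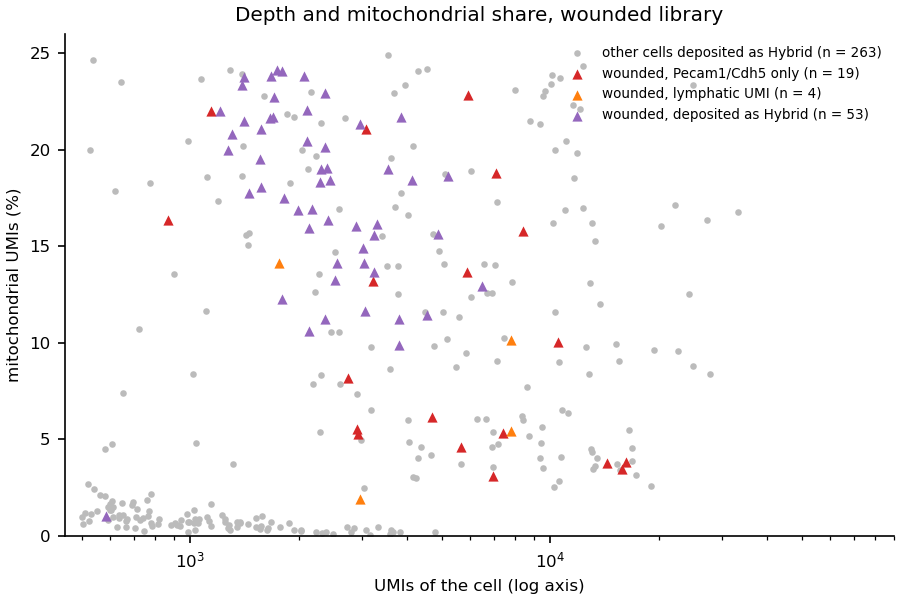
Each point is 1 cell of the wounded library, with its UMIs on the x axis (log) and its mitochondrial share in percent on the y axis. The 53 chosen Hybrid cells sit at few UMIs and a high mitochondrial share (medians 2289 and 18.4%), apart from most of the 263 other Hybrid cells (2596 and 4.86%).

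Lymphatic genes outside the rule were present in these cells as well. Fgl2 was found in 37 of the 53, Prox1 in 22, Flt4 in 17 and Reln in 16, each with 4 UMIs or fewer per cell except Fgl2, which reached 12. At least 1 of these 4 genes was found in 45 of the 53 cells (84.9%), against 23 of the 263 other Hybrid cells (8.75%) and 32 of 1165 cells (2.75%) of the wounded library under other names or none, chosen to lie within the same range of depth and at or above the same lowest mitochondrial share. When every cell was thinned to 1000 UMIs, Prox1 was found in 28.8% of 52 cells (17.1 to 43.1; 41.5% before thinning), in 1.49% of 201 other Hybrid cells, in 0.0872% of 1147 of the comparison cells and in 0 of 389 Rectum cells, which allows up to 0.771%. Thinning left out 1, 62, 18 and 8 cells. The median depths before thinning were 2289, 2596, 4274 and 9991 UMIs. Both lower limits for the comparison cells, 582 UMIs and 1.03% mitochondrial UMIs, came from 1 Hybrid cell, so the match was loose. The comparison cells had a median mitochondrial share of 14.3%, against 18.4% in the 53. Picked for their values, Flt1, Plvap, Ly6c1, Sparc, Nrp1 and Gpihbp1, genes of the Pecam1/Cdh5 cells, had 0 UMIs in all 53 cells, where 0 allows up to 22.7 CPM. The 18 blood endothelial genes together had 6 UMIs (45.3 CPM), in Emcn and Car4 only. Fabp4 and Igfbp7 had 1 UMI each. Any UMI of the 20 pan-endothelial genes outside the rule was found in only 37 of the 53 cells. That list summed to 951 CPM in the 53, 40.7 CPM in the other Hybrid cells and 8929 CPM in the 4 wounded lymphatic cells.

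Keratinocyte transcripts were found in the same cells. All 53 had UMIs of the 10 stratified epithelial genes, at 1270, 5206 and 10431 CPM (lowest, median and highest cell), and all 10 genes were found, with Krt14 the most abundant. Summed, that list stood at 5543 CPM in these cells, 6656 CPM in the other Hybrid cells, 9566 CPM in the comparison cells, which were deeper (median 4274 UMIs), and 395 CPM in the 4 wounded lymphatic cells. Krt14, the basal keratin, was found in 50 cells, and after thinning in 69.2% of them against 73.4% of the comparison cells and 19.3% of Rectum cells. The rectal list had 9 of 10 genes with UMIs at 1193 CPM, Lgals4 the most abundant and Cdx1 at 0, against 2137 CPM in the other Hybrid cells. The anal gland list had all 8 genes with UMIs at 3255 CPM, Apoc1 the most abundant, against 1554 CPM in the other Hybrid and 2627 CPM in the comparison cells. Epcam, the protein the sort kept, was found in 24 of the 53 at 242 CPM. Leukocyte genes had 2 UMIs, both of Cd74, and fibroblast genes 2 UMIs.

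The keratins of the suprabasal layers stood out. They were named after their values were seen, as were Pthlh and Vim below. Krt13, a keratin of internal stratified epithelia, had 204 UMIs in 47 of the 53 cells (1540 CPM), against 32.6 CPM in the other Hybrid cells and 144 CPM in the comparison cells, log2 ratios of 5.56 (5.09 to 6.07) and 3.42 (3.19 to 3.65). Krt10, the keratin of cornifying suprabasal cells, had 217 UMIs in 49 cells (1639 CPM), with ratios of 2.76 (2.51 to 3.02) and 2.81 (2.59 to 3.02). Krt4, the partner of Krt13, was at 657 CPM with ratios of 5.33 and 3.07. After thinning, Krt13 was found in 73.1% of 52 cells, 5.47% of other Hybrid cells and 2.96% of the comparison cells. Of the 53 cells, 52 had a UMI of Krt13, Krt4, Krt10 or Krt1, and 44 had such a UMI together with one of Prox1, Flt4, Reln or Fgl2. Those pairs were found in 11 of the 263 other Hybrid and 5 of the 1165 comparison cells. Lymphatic and suprabasal transcripts were thus held by the same barcodes, and the source of the mixture was not tested.

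The next counts follow in part from the choice of the 53 cells by lymphatic genes and from the minimum of 20 UMIs, which Reln met through the 53 alone and Flt4 (18 UMIs against 0) missed, so nothing is read from them. Against the other Hybrid cells, 5 of 8 lymphatic genes were at least 4-fold higher in the 53, where 1.66% of 7393 genes were higher and 3.85% lower. Against the comparison cells 5 of 11 were higher, where 1.5% of 11449 genes were higher and 2.31% lower. Both comparisons share the 53 cells. Reln was at 189 CPM and had 0 UMIs in the other Hybrid cells, a log2 ratio of at least 6.41, and 1 UMI in the comparison cells. Pthlh, the parathyroid hormone-related peptide, was at 196 CPM against 2.2 and 10.1 CPM, and Vim, the intermediate filament protein of mesenchymal and endothelial cells, at 997 CPM against 44.4 and 244 CPM. Krt14 was lower in the 53 than in either, by log2 ratios of -0.52 (-0.74 to -0.31) and -1.34 (-1.55 to -1.14).

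Against the 4 wounded lymphatic cells, all 10 lymphatic genes compared and 4 of 5 pan-endothelial genes were at least 4-fold lower in the 53 Hybrid cells, and 5 of 8 stratified epithelial genes at least 4-fold higher, where 11.0% of 889 genes were lower and 6.19% higher. Members met the 20 UMIs needed mainly through 1 group, such as Krt14 (195 UMIs in the Hybrid, 4 in the lymphatic cells) and Cldn5 (46 in the lymphatic cells). Lymphatic genes had also chosen both groups, so these counts are a description. Prox1 was at 242 against 1677 CPM, Flt4 at 136 against 1233 CPM, Cldn5 at 106 against 2269 CPM and Kdr at 83.1 against 691 CPM. Igfbp5 was at 0 in all 53 cells against 2812 CPM. Relative to Lyve1, the summed UMIs of Mmrn1 were 0.944 per Lyve1 UMI in the Hybrid cells and 1.12 in the lymphatic cells, those of Ccl21a 2.17 and 3.45, those of Prox1 0.360 and 0.694, and those of Reln 0.281 and 0.388. Lyve1, Ccl21a and Mmrn1 chose the cells, and Lyve1 itself was at 672 and 2417 CPM, so these ratios are given as a description.

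The remaining deposited cells carried little endothelial RNA. The Basal and the Rectum cell of the normal library had 1 Pecam1 UMI each and 2 and 1 Lyve1 UMIs, and no UMI of the 20 pan-endothelial genes among 20027 and 7779. The 2 Suprabasal cells of the wounded library had 2 Lyve1 UMIs each and no other rule UMI. The Regeneration cell had 1 Pecam1 and 1 Cdh5 UMI, with 2 UMIs of Plvap, 6 of Fabp4 and 5 of Col4a1, and 157 UMIs of stratified epithelial genes among 13080.

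The cells were also clustered with the rule genes removed from the variable features. In the wounded library at a resolution of 0.2 (11 clusters), 76 of the 79 lay in 1 cluster of 729 cells, and at 0.8 (22 clusters) 74 lay in 1 cluster of 94. That cluster held all 19 Pecam1/Cdh5 cells, the 4 lymphatic cells and 51 of the 53 Hybrid cells. Its other 20 cells were 9 Hybrid cells, 1 Wound_Stress cell and 10 outside the table, and 9 of them had 1 rule UMI. Kdr, Adgrl4, Flt4, Gpihbp1, Ptprb, Cldn5 and Erg were among its 10 leading genes, with C1qc, C1qb and Gm12002. C1qb, a complement gene of macrophages, had 72 UMIs in the cluster and came from cells that the rule did not choose. In the normal library 15 of 18 lay in 1 cluster of 444 cells at 0.2 (7 clusters) and in 1 of 152 at 0.8.

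Wounded and normal cells were compared within the Pecam1/Cdh5 kind, 19 against 10 cells, because the kinds had unequal shares in the libraries. The normal cells had medians of 8270 UMIs and 4.01% mitochondrial UMIs, and the wounded cells 5870 UMIs and 8.20%. The part of this difference in the ratios was not tested. Of the 20 pan-endothelial genes, 2 were at least 2-fold higher and 2 at least 2-fold lower in the wounded cells, with a median log2 ratio of -0.03 against 0.02 over the 1670 genes compared, of which 11.8% were higher and 9.28% lower. The higher were Kdr and Erg, an ETS factor with 6 and 19 UMIs whose interval spans 0 (1.00, -0.38 to 2.61), and the lower were Cldn5 and Sox18 (-1.25, -2.56 to 0.00). Without the haemoglobin-rich cell 1 was higher and 2 lower, with a median of -0.21 against -0.09 over all genes. Of the 1558 genes compared then, 11.1% were higher and 11.7% lower. Cd93 stood at 868 and 883 CPM (log2 ratio 0.02, -0.42 to 0.48), Flt1 at 1271 and 1138 CPM (-0.16, -0.54 to 0.22) and Esam at 1082 and 915 CPM (-0.24, -0.66 to 0.18). Of 9 blood endothelial genes 0 were higher and 1 lower. The lower one was Sox17, an arterial transcription factor, with 21 UMIs in 8 normal and 11 UMIs in 8 wounded cells (-1.59, -2.79 to -0.48).

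Cldn5 was lower in the wounded Pecam1/Cdh5 cells. It had 5, 19, 0, 4, 4, 8, 54, 0, 7 and 9 UMIs in the 10 normal cells, and 0 to 15 UMIs with a median of 0 in the 19 wounded cells, where 9 held any. The values overlap, and 1 normal cell held 54 of the 110 UMIs. The groups also differed in make-up, since Fabp4 was found in 4 of the 10 normal and 15 of the 19 wounded cells. The 4 normal cells with Fabp4 held 0, 4, 0 and 7 Cldn5 UMIs, so most normal Cldn5 UMIs lay in cells without Fabp4. The part of this make-up in the Cldn5 ratio was not tested. The levels were 1384 and 286 CPM, a log2 ratio of -2.27 (-2.86 to -1.72), and -1.47 (-2.12 to -0.85) without that cell. Without the haemoglobin-rich normal cell the ratio was -2.53 (-3.12 to -1.97). Kdr moved the other way, with 0 to 5 UMIs in the normal cells (median 1.5, found in 8) and 0 to 27 in the wounded (median 2, found in 17), at 277 and 827 CPM, a log2 ratio of 1.58 (0.91 to 2.31). Of the 104 wounded Kdr UMIs, 52 were in 2 cells, without which the ratio was 1.00 (0.26 to 1.79). In the lymphatic cells Cldn5 stood at 2084 CPM (normal) and 2269 CPM (wounded), a log2 ratio of 0.12 (-0.52 to 0.77). The difference between the kinds was not tested.

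Of 10 basement membrane genes compared, 3 were at least 2-fold higher and 0 lower, with a median log2 ratio of 0.68, where 11.8% of all genes were higher and 9.28% lower. Without the haemoglobin-rich normal cell 2 of 10 were higher, with a median of 0.48, where 11.1% of all genes were higher, so the count lies near the share over all genes. Col4a1, a chain of the collagen IV network under endothelium, had 36 UMIs in 5 of the 10 normal cells, 29 of them in 1 cell, and 218 UMIs in 15 of the 19 wounded cells (1734 against 453 CPM, log2 ratio 1.94, 1.42 to 2.49). Without that cell the ratio was 3.99 (2.93 to 5.33). Leaving out the highest cell of the lower group had to raise the ratio. No wounded cell was left out, although 1 of them held 53 Col4a1 UMIs. Its neighbour Col4a2 was at 554 and 1034 CPM (0.90, 0.40 to 1.43). The same list was higher in the other cells of the wounded library too, by a median of 1.02 with 6 of 11 genes at least 2-fold higher (11.3% of 14861 genes, with 7.41% lower), and Col4a1 there by 1.88 (1.70 to 2.07).

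**Figure D4:**
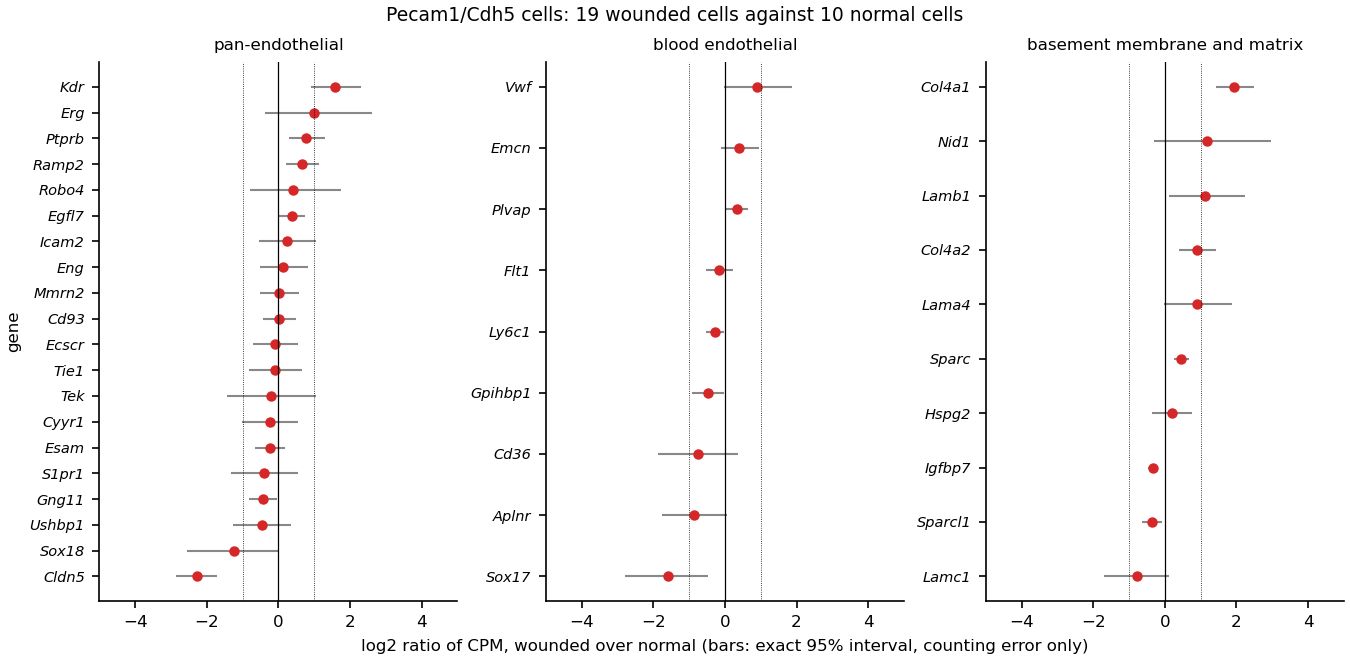
Each point is the log2 ratio of CPM of 1 gene, wounded over normal, in Pecam1/Cdh5 cells (19 against 10), with exact 95% binomial intervals as bars and dotted lines at 2-fold, in panels for pan-endothelial, blood endothelial and basement membrane genes. Cldn5 lies lowest among the pan-endothelial genes at -2.27 and Col4a1 highest among the matrix genes at 1.94, while Cd93 and Flt1 have intervals that span 0.

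Immediate-early genes, which respond within minutes to stress and to tissue dissociation, were lower in 5 and higher in 1 of 13 compared, where 9.28% of all genes were lower and 11.8% higher. Junb was at 1409 CPM in normal and 334 CPM in wounded cells (-2.08, -2.62 to -1.55) and Fos at 1799 and 740 CPM (-1.28, -1.67 to -0.90). In the other cells of the libraries Junb differed by -0.83 and Fos by -0.63 in the same direction. Hes1, a Notch target, had 17 UMIs in 6 normal and 3 UMIs in 2 wounded cells (-3.16, -5.58 to -1.37), and -1.43 in other cells. Igfbp3, which binds insulin-like growth factors, was at 1825 and 334 CPM (-2.45), and at -3.11 in other cells. Cd200, a brake on myeloid cells, was at 1862 CPM in normal and 589 CPM in wounded cells (-1.66, -2.08 to -1.25), against -0.55 in other cells. These genes moved in the same direction in the rest of the library.

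Xist, the RNA of the inactive X chromosome of female cells, had 0 UMIs in the 10 normal and 111 UMIs in 13 of the 19 wounded cells, a log2 ratio of at least 4.55, and differed by 1.31 (1.27 to 1.35) in the other cells. The animals of the study are described as male and female in like numbers, without a count for each pool, and the sex of the mice behind these few cells cannot be told apart from the wound in these ratios.

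Among the other ratios on the higher side, Chst15, a chondroitin sulfate sulfotransferase, had 3 UMIs in 2 normal and 33 UMIs in 12 wounded cells (2.80, 1.13 to 5.15), against 0.79 in other cells. Rsad2 (viperin), induced by interferon, had 1 UMI in 1 normal and 27 UMIs in 7 wounded cells (4.09, 1.49 to 9.45), and 1 and 40 UMIs in the 1530 and 5146 other cells. Hspa1b, a heat shock gene that nearly matches Hspa1a in sequence, had 3 and 28 UMIs (2.56), with 2.06 in other cells. Cycling genes were scarce. Mki67 had 0 UMIs in the 10 normal and 1 UMI in the 19 wounded Pecam1/Cdh5 cells, and the 13 Top2a UMIs of the wounded cells were all in 1 cell.

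Several of the most extreme ratios had the same direction in the rest of the libraries too, whose headers name Cell Ranger 3.1.0 (normal) and 4.0.0 (wounded). The libraries were also counted on different feature lists, of 31054 (normal) and 32285 (wounded) features. In Pecam1/Cdh5 cells and in other cells, the log2 ratio of Rps12 was 7.05 and 5.80, of Rpl27 4.39 and 4.24, of Lars2 4.89 and 4.43, of Rnasek 4.25 and 6.69, of Gm42418 3.82 and 5.04 and of AY036118 3.65 and 3.55. Nme2 was higher by at least 4.48 and by 6.42. On the lower side Rpl9-ps6 had -5.19 and -3.42, Rps27rt -4.62 and -4.59 and Rpl10-ps3 -3.36 and -5.08. The last 3 are near-identical copies of ribosomal protein genes, and AY036118 (chr17:39847113-39848035) overlaps Gm42418 (chr17:39846958-39848788), so the gene a read came from is uncertain. The part of read assignment in these ratios was not tested. These values are those of the 2 libraries, and condition and processing cannot be told apart in them.

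Comparing all 79 wounded with all 18 normal cells mixed the kinds. Of the 3384 genes compared, 12.6% were at least 2-fold higher and 11.6% lower. Krt1 and Krt10 were among the 10 highest ratios and, with UMIs mostly in the Hybrid cells, followed the make-up of the groups. The list medians were -0.58 for pan-endothelial, 0.00 for lymphatic and -0.82 for blood endothelial genes, against -0.07 over all genes. These medians depended on which cells were taken. The pan-endothelial one was 0.11 under 10% mitochondrial UMIs and 0.14 outside the deposited tables, the blood endothelial one was 0.0134 and -0.0622 there and -0.0875 without the cells of highest doublet score, and the lymphatic one was -0.88 with the mean of per-cell CPM. The 53 Hybrid cells held 132426 of the 311492 UMIs of the wounded group.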

How the data were processed

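Per the file headers and the labels, the deposited matrices hold raw UMI counts per gene and barcode (10x 3′ libraries, Cell Ranger 3.1.0 for the normal and 4.0.0 for the wounded library, mm10). The authors also deposited natural log normalized values of their filtered cells, of which only the cell names and barcodes were used here. The submitters' processing notes name Seurat 3.2.2.

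Within each group of cells the UMIs of a gene were added up and given as CPM with exact Poisson 95% intervals. Ratios have exact binomial intervals and shares Clopper-Pearson intervals. With 1 library per condition there was no test. Genes with at least 20 UMIs over both groups were compared, and a count of 0 was replaced by 3 UMIs to give a bound. Intervals and floors cover counting error only. The members, gene lists and named genes were chosen with earlier results of these data known. Named genes were members of the lists, the 15 highest ratios of chosen over other cells (at least 20 UMIs in at least 5 cells) and the 10 highest and 10 lowest of wounded over normal. Scrublet (scanpy 1.11.5, expected rate 6%) called 4 normal and 0 wounded doublets, too few to be used. Cells scoring above percentile 95 of their library, 60 normal and 237 wounded cells, were left out as an alternative. Clusters came from Seurat 5.3.0 in R 4.3.3 (2000 variable features, 10 components). Python 3.11.15, numpy 2.4.6, scipy 1.17.1 and pandas 2.3.3 were used, and the ratio step was checked on simulated data. Positions and promoters are from GRCm38 annotation.

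The study's EpCam gate, the pooled mice and the different Cell Ranger versions and feature lists bear on all values. ZsGreen1 was a feature of the normal library only. Alternatives were other cutoffs on rule UMIs, mitochondrial share, UMIs per gene, depth after thinning, doublet score and clustering.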

Additional observations from a re-analysis of the deposited data

Results flagged for a closer look

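Barcodes that failed the filters were outside every comparison above. Among the 11991 such barcodes of the wounded library, 21 had at least 2 UMIs of the rule genes, against 0 of 1016 in the normal library. Of these, 19 had a mitochondrial share of 25% or more and 2 had 5000 or more detected genes, and 14 carried a lymphatic rule gene. Their median was 1824 UMIs with a mitochondrial share of 28.5%. The cause was not tested.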

How the results depend on the processing

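Of 281 values recomputed for 30 results under 19 alternatives, 237 stayed within the limit set for each, and 44 moved beyond it. None of the medians that changed sign had been at or past 2-fold, but the direction of the pan-endothelial median of wounded over normal cells (-0.58 over all chosen cells) turned under 2 alternatives and that of the blood endothelial one (-0.82) under 1. Asking for 5 or more rule UMIs left 47 wounded cells, and 0% of the normal cells were then in the deposited table. A mitochondrial share under 10% left 16 wounded cells (25% deposited), with 232 genes 2-fold higher and 174 lower in wounded over normal cells, and medians of 0.11 (pan-endothelial) and 0.0134 (blood endothelial). Among cells outside the deposited tables, the number of genes 4-fold lower in the wounded was 423, and 271 were 2-fold higher and 176 lower in wounded over normal cells, and those medians were 0.14 and -0.0622. Without the cells of highest Scrublet score the blood endothelial median was -0.0875. With the mean of per-cell CPM, 609 (normal) and 592 (wounded) genes were 4-fold lower, 801 were 2-fold lower in wounded cells, and the medians were -1.43 (pan-endothelial) and -0.88 (lymphatic). A minimum of 10 UMIs gave 911 higher and 768 lower, one of 50 UMIs 119 and 135, with 781 genes 4-fold higher in the normal cells, and no minimum 1344 and 2027. Chosen after seeing the data, Pecam1/Cdh5-only cells were 10 (0% deposited) and 20 (5%), with a lymphatic median of 1.98 in the normal library, 207 genes higher and 169 lower, and a pan-endothelial median of -0.18. Added then too, the share of wounded cells with a lymphatic UMI was 31.2% under 10% mitochondrial UMIs and 17.4% outside the deposited tables. Also chosen then, asking that the interval lie on 1 side of 0 gave 257 genes higher. Without the wounded Pecam1/Cdh5 cells highest in Kdr, its ratio of wounded over normal was 1.00 (also chosen then). Without the normal cell highest in the gene, the ratio was -1.47 for Cldn5 and 3.99 for Col4a1. For Col4a1 that cell lay in the lower group, so the ratio had to rise. Thinned to 2000 UMIs, Flt4 was found in 24.2% and Krt14 in 97.0% of Hybrid cells. Chosen cells made up 9.87% (normal) and 78.7% (wounded) of their cluster at a resolution of 0.8, and 78.7% (wounded) with the rule genes kept.

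No paired analysis was possible because each condition was 1 library. Depth limits the lymphatic cells most: 3 UMIs of the group were 156 CPM in 5 normal and 148 CPM in 4 wounded cells, and the Pecam1/Cdh5 ratios rest on 10 and 19 cells.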

Other observations

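Xist, the RNA that coats the inactive X chromosome in female cells, had 0 UMIs in 15 of the 16 chosen cells of the normal library outside the deposited table, and 14 UMIs in the other, the keratinocyte-rich cell left out of the lymphatic group. A count of 0 in 15 cells allows up to 20% of such cells to hold a UMI, and does not limit the share that express Xist, since the cells were as shallow as 688 UMIs. It was found in 551 of the 1530 other normal cells (36.0%), whose median depth was 9496 UMIs against 8270 in the 10 Pecam1/Cdh5 and 3068 in the 5 lymphatic cells. In the wounded library it was found in 16 of 23 endothelial cells outside the deposited table (69.6%), in 47 of the 53 chosen Hybrid cells (88.7%) and in 3716 of the 5146 other cells (72.2%). The animals of the study are described as male and female in like numbers, without a count for each pool.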
